A study of Mus musculus with 12 samples.

Results

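The double transgenic mice of this study carry 5xFAD together with Ulk1OV, and their hippocampus was compared with that of wild type mice. The comparison was chosen by label: the 3 libraries labelled 5xFAD;Ulk1OV were set against the 3 labelled WT, 6 of the 12 libraries in the series. The other 6 libraries, 3 from 5xFAD mice and 3 from Ulk1OV mice, entered the fit and show where the double transgenic differs from each single transgenic. 5xFAD is a mouse line in which the neuronal Thy1 promoter drives mutant human APP, and it is known for early amyloid plaques. Ulk1OV stands for overexpression of ULK1, and the sources used here give neither its construct nor its promoter. They give no age or strain either, and no allele or agent is named that all 4 groups share. The tissue contained the hippocampal neuron types its label implies: Wfs1, a marker of CA1 pyramidal cells, lay at 55.6 to 137 CPM (counts scaled to library size) in 5xFAD;Ulk1OV and 146 to 188 in WT, and Prox1, a marker of dentate granule cells, at 44.9 to 73.7 and 35.2 to 81.2 CPM.

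ULK1 is the kinase at the head of autophagy, the process by which a cell wraps its own proteins and organelles in a membrane and delivers them to the lysosome. It acts in a complex with ATG13, FIP200 and ATG101, is held inactive by mTORC1 when nutrients are plentiful, and is switched on by AMPK. In brains with amyloid plaques, microglia around the plaques turn on a set of genes that includes Cst7, Clec7a and Itgax, and astrocytes raise Gfap.

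Library totals ran between 17598269 and 18291136 counts in 5xFAD;Ulk1OV and between 16913424 and 18169767 in WT, and 17227 of the 54427 listed genes passed the filter on low counts. The mitochondrial genome accounted for 4.035% to 5.97% of counts in 5xFAD;Ulk1OV and 5.05% to 5.42% in WT. Nothing in the labels states that replicates came from separate animals, so p-values measure a spread among libraries that may not be the spread among animals. Between pairs of libraries of 1 group the chi-square statistic divided by its degrees of freedom was 7.245 to 24.6 in 5xFAD;Ulk1OV and 7.801 to 23.2 in WT, above the sampling noise.

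Libraries were first placed by how far apart they lay over 12451 well measured genes, as the SD of the log2 CPM differences between 2 libraries. 5xFAD;Ulk1OV replicates 1 and 2 were 0.23 apart. They were no farther from WT replicate 1, at 0.23 and 0.26, and WT replicate 2, at 0.245 and 0.26, than those WT replicates were from each other (0.26). From the 5xFAD libraries they lay 0.36 to 0.40 away, and from the Ulk1OV libraries 0.38 to 0.49. The library labelled 5xFAD;Ulk1OV replicate 3 stood 0.33 and 0.34 from its 2 group mates, and its nearest libraries were Ulk1OV replicate 2, at 0.288, and WT replicate 3, at 0.297. WT replicate 3 lay 0.33 from each of its own group mates. The sources used here give no sequencing batch or date, so a batch that the groups might follow cannot be told apart from them.

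**Figure D1:**
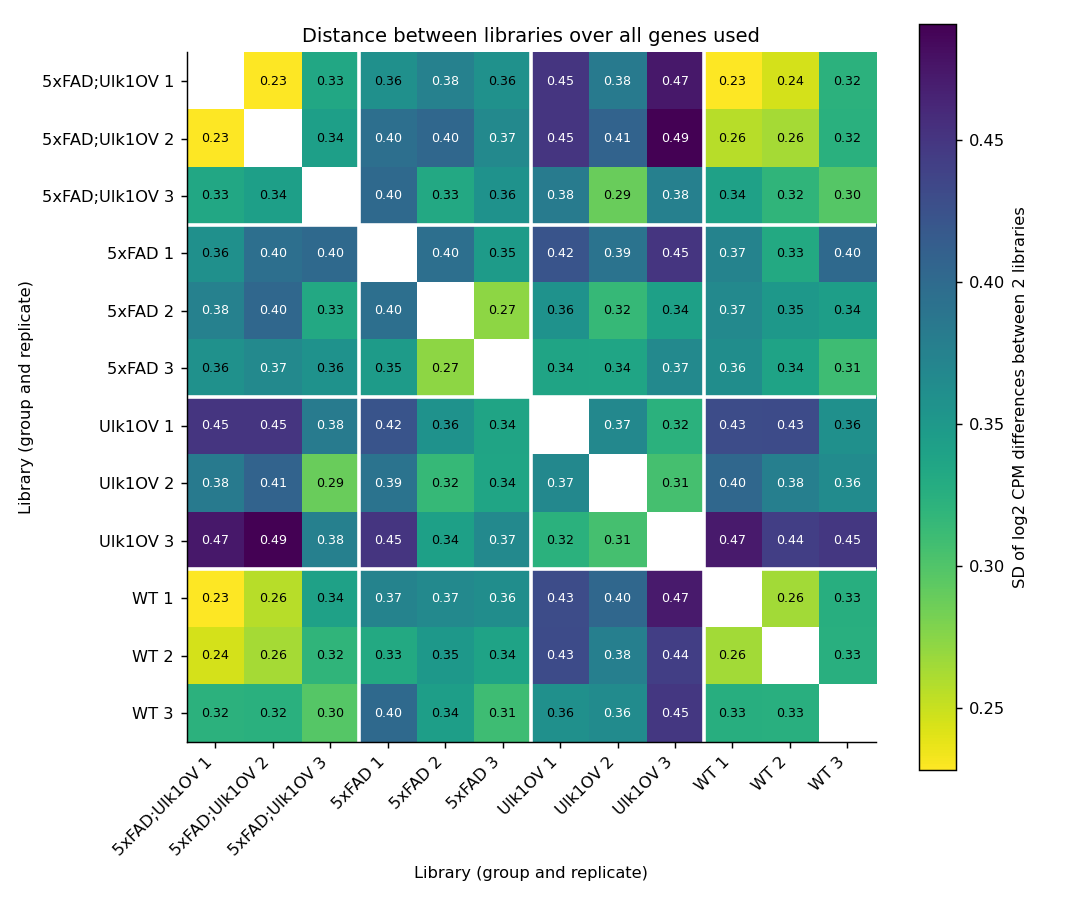
Each cell gives the SD of log2 CPM differences between 2 of the 12 libraries (rows and columns, group and replicate) over 12451 genes, with yellow for the closest pairs. 5xFAD;Ulk1OV replicates 1 and 2 form a close block with WT replicates 1 and 2 (0.23 to 0.26), while the library labelled 5xFAD;Ulk1OV replicate 3 is closest to Ulk1OV replicate 2 (0.288) and WT replicate 3 (0.297).

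The 2 engineered changes were checked first. Ulk1 (GRCm38, chr5:110784488-110810097), the overexpressed kinase gene, read 97.1, 98.5 and 85.05 CPM in the libraries labelled 5xFAD;Ulk1OV, against 77.6, 81.8 and 74.1 CPM in WT, here and below in the order of replicates 1, 2 and 3. The groups did not overlap, and the ratio of the means was 1.20. An exact two-sided permutation test gave p = 0.1, the smallest value that 3 libraries against 3 can reach. In edgeR's fit to all 12 libraries the log2 fold change was 0.27 ± 0.11 (SE), with a 95% interval of 0.01 to 0.53 and an unadjusted p of 0.0345. Without the library labelled replicate 3 it was 0.33 ± 0.12 (unadjusted p = 0.0163).

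App (chr16:84949685-85173766), the mouse gene for the amyloid precursor protein, to which reads of a human APP transgene can align in part, read 2587, 2201 and 1310 CPM in 5xFAD;Ulk1OV, against 1366, 1406 and 1472 CPM in WT. Prnp (chr2:131909928-131938429), which encodes the prion protein, read 2202, 2067 and 954 CPM, against 1055, 1119 and 900.1 CPM. Lamr1-ps1 (chr2:131904086-131904959), a processed pseudogene that ends 4.97 kb before Prnp begins, had 264, 184 and 0 reads in 5xFAD;Ulk1OV and 0 in every WT library. In all 3 of these genes 5xFAD;Ulk1OV replicates 1 and 2 were far above WT and the library labelled replicate 3 was at the WT level. Against a floor of 3 reads in each WT library, Lamr1-ps1 was at least 48.2-fold higher over the 3 libraries labelled 5xFAD;Ulk1OV and at least 72.2-fold higher over replicates 1 and 2. Thy1 (chr9:44043384-44048579), the gene whose promoter drives the transgene in general descriptions of the 5xFAD line, read 606, 595 and 538 CPM in 5xFAD;Ulk1OV. In WT it read 587, 642 and 556 CPM, with a log2 fold change of -0.04 ± 0.09 and an interval of -0.25 to 0.18. Thy1 was thus level where App, Prnp and Lamr1-ps1 were high, in 5xFAD;Ulk1OV replicates 1 and 2. Why Prnp and Lamr1-ps1 were high, and which promoter these mice carry, was not tested. The 5xFAD libraries held 2346 to 2667 CPM of App and 2142 to 2510 CPM of Prnp, and both genes in the library labelled 5xFAD;Ulk1OV replicate 3 were at odds with the 5xFAD part of its label. It carried 85.05 CPM of Ulk1, above the highest WT library but under 5xFAD replicate 1, at 86.3 CPM, so this level does not settle the Ulk1OV part of its label.

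Lamr1-ps1 derives from Rpsa, a gene of the small ribosomal subunit, so its sequence decides whether its reads can be told from those of the parent gene. Over 839 aligned bases the pseudogene and the Rpsa transcript of GENCODE M21 were 77.8% identical, with 186 mismatches and 26 gap openings. Of the stretches of 100 bases without gaps inside the coding part of Rpsa, the one with the most mismatches is shown for both. It runs 5′ to 3′ on the plus strand of chromosomes 2 and 9, with the bases that differ in capitals.
Lamr1-ps1: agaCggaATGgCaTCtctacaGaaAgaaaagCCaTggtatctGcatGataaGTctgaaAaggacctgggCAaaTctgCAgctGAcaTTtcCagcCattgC
Rpsa: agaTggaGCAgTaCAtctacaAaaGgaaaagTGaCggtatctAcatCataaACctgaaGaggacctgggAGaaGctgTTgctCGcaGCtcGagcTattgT
Chosen in this way, the stretch holds 29 differences, and a read of ordinary length from within it covers several of them. Rpsa itself read 541, 551 and 582 CPM in 5xFAD;Ulk1OV and 475, 522 and 511 CPM in WT, and did not follow the pseudogene.

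**Figure D2:**
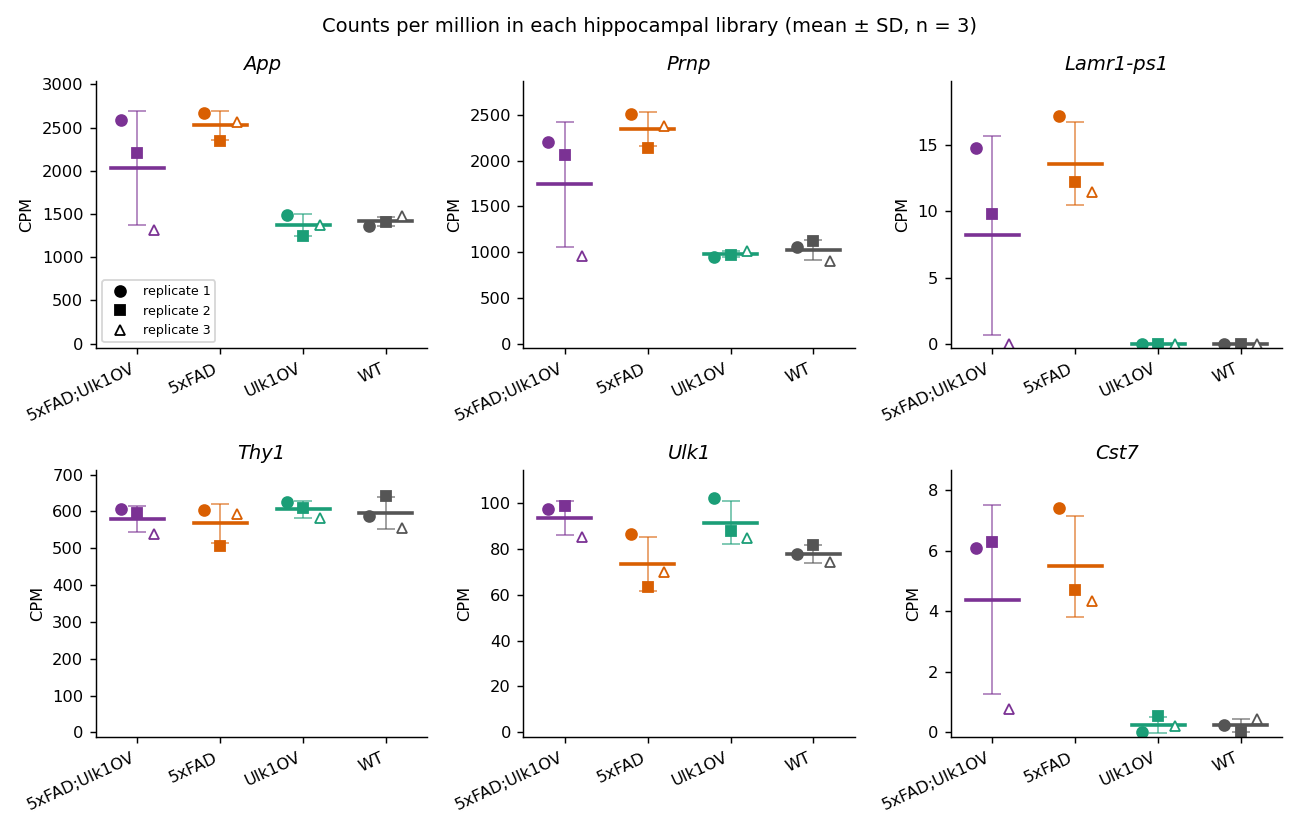
CPM (y axis, from 0) of 6 genes in each library of the 4 groups (x axis), with the group mean as a bar, the SD as an error bar (n = 3) and open triangles for replicate 3. In App, Prnp and Lamr1-ps1 the open triangle of 5xFAD;Ulk1OV lies at the level of the WT and Ulk1OV libraries, and in Cst7 just above them, while the other 2 libraries sit with 5xFAD. Thy1 is level across groups, and all 3 libraries labelled 5xFAD;Ulk1OV exceed the 3 WT libraries in Ulk1.

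Across the transcriptome the double transgenic hippocampus was close to wild type. With all 3 libraries labelled 5xFAD;Ulk1OV, the edgeR quasi-likelihood fit, with p-values adjusted by Benjamini and Hochberg's method, called 0 of 17227 genes (0%), and the lowest adjusted p was 0.9998. At an unadjusted p under 0.05 there were 388 genes (2.25% of those tested), 175 higher and 213 lower in 5xFAD;Ulk1OV. Uniform p-values would give 5%, so single genes at that level are described and not taken as differences. DESeq2 also called 0, with 438 at an unadjusted p under 0.05. The 3 libraries labelled 5xFAD;Ulk1OV lay wholly above or below the 3 WT libraries in 1518 genes (8.81%), above in 761 (4.42%) and below in 757 (4.39%). Such separation has an exact two-sided permutation p of 0.1, so a gene without overlap is by itself not unusual. The median absolute log2 fold change was 0.10, and 90% of genes stayed under 0.42. Only 254 genes (1.47%) differed by more than 1 on the log2 scale. For 13296 genes (77.2%) the 95% interval lay within a 2-fold change in either direction, and a larger difference in them lay outside that interval. Without the library labelled replicate 3 the spread was wider. The median absolute log2 fold change was then 0.12, and 507 of 17603 genes (2.88%) differed by more than 1. The interval lay within a 2-fold change for 12726 of them (72.3% of the 17603).

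Without the library labelled replicate 3, edgeR called 5 of 17603 genes (0.0284%), all higher in 5xFAD;Ulk1OV, and 0 lower, with 530 (3.01%) at an unadjusted p under 0.05, 217 higher (1.23%) and 313 lower (1.78%). These 5 genes were Lamr1-ps1 (adjusted p = 0.000645), Prnp (1.06 ± 0.11 on the log2 scale, adjusted p = 0.00255), Rps26-ps1 (5.69 ± 0.73, adjusted p = 0.0194), App (0.76 ± 0.11, adjusted p = 0.044) and Cst7 (4.73 ± 0.69, adjusted p = 0.044). App, Prnp and Lamr1-ps1 are the genes for which that library was set aside, so their calls describe the choice and are no separate finding. DESeq2 without the same library called 7 genes, those 5 with Clec7a (1.99 ± 0.43, adjusted p = 0.0163) higher and Pik3c2a (-0.73 ± 0.15, adjusted p = 0.0103), a phosphoinositide 3-kinase of membrane traffic, lower. Pik3c2a read 17.7, 16.7 and 28.9 CPM in 5xFAD;Ulk1OV, against 31.2, 27.7 and 26.9 CPM in WT. Only 5xFAD;Ulk1OV replicates 1 and 2 lay below WT in Pik3c2a.

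**Figure D3:**
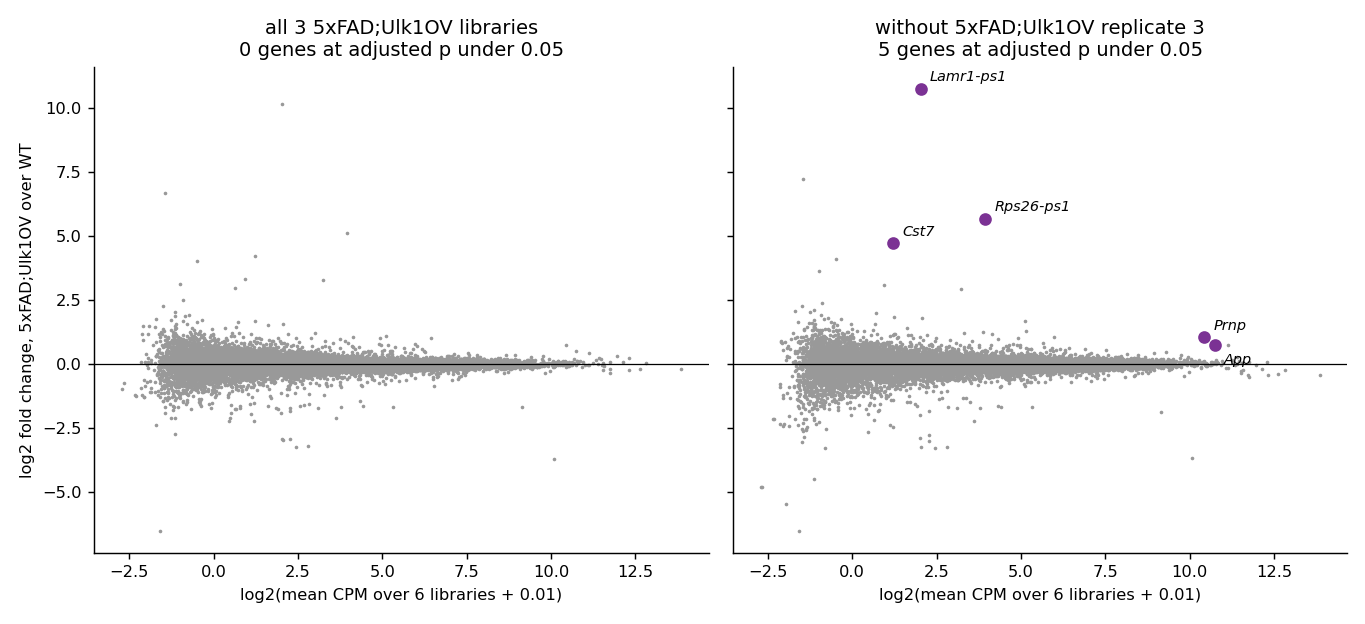
Each point is 1 of 17227 genes, with its level as log2(mean CPM over 6 libraries + 0.01) on the x axis and its log2 fold change, 5xFAD;Ulk1OV over WT, on the y axis, for all 3 libraries (left) and without replicate 3 (right). No gene is called on the left and 5 are called on the right (purple, named), all of them higher in 5xFAD;Ulk1OV.

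Rps26-ps1 (chr8:107439131-107439579), a transcribed pseudogene of the ribosomal protein gene Rps26, split the group in the same way. It read 44.1, 44.1 and 1.73 CPM in 5xFAD;Ulk1OV, against 0.764, 0.545 and 1.25 CPM in WT, and 0.848 to 6.89 CPM in 5xFAD and 0.654 to 3.87 CPM in Ulk1OV. The 2 high libraries were thus 5xFAD;Ulk1OV replicates 1 and 2, and no 5xFAD library approached them. Against 5xFAD the log2 fold change was 3.28 ± 0.92 (edgeR adjusted p = 0.112), and without the library labelled replicate 3 it was 3.85 ± 0.63 (adjusted p = 0.054). Over 351 bases Rps26-ps1 and Rps26 were 99.4% identical, with 2 mismatches. A stretch of 120 bases, 5′ to 3′ on the minus strand of chromosomes 8 and 10, shows how little separates them, with the differing base in capitals.
Rps26-ps1: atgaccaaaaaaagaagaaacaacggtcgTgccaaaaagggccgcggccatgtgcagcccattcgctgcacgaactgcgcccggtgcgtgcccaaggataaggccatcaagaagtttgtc
Rps26: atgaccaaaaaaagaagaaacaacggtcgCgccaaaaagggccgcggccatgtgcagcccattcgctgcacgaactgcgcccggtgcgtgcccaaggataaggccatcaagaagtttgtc
The sources used here do not say how counting divided reads between the pair, so the level of Rps26-ps1 is uncertain. Rps26 read 149, 160.4 and 188 CPM in 5xFAD;Ulk1OV and 176, 168 and 173 CPM in WT.

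Genes of the ULK complex other than Ulk1 stayed near their wild type level. Of the 5 members, 1 (Ulk1) was higher at an unadjusted p under 0.05, where the share of all genes was 1.02%, and 0 were lower, where it was 1.24%. Ulk2, the paralog of Ulk1, read 126, 126 and 113 CPM in 5xFAD;Ulk1OV and 131, 138 and 121 CPM in WT. The scaffold gene Rb1cc1, which encodes FIP200, read 94.7, 91.1 and 106 CPM and 88.6, 101 and 108 CPM, Atg13 84.4, 83.7 and 74.1 CPM and 81.05, 86.6 and 78.6 CPM, and Atg101 37.5, 33.5 and 32.2 CPM and 34.5, 30.7 and 27.6 CPM. All 5 intervals lay within a 2-fold change. Of 29 genes that build the autophagosome, from the phosphatidylinositol kinase Pik3c3 to the membrane fusion gene Stx17, 0 reached an unadjusted p under 0.05, and their log2 fold changes ran from -0.15 to 0.10. Their median was -0.02, beside -0.00 over all genes tested, and all 29 intervals lay within a 2-fold change.

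Beyond the formation step, a few genes of cargo capture and digestion read higher. Sqstm1, whose product p62 carries ubiquitinated cargo into autophagosomes, read 553, 552 and 529.9 CPM in 5xFAD;Ulk1OV, against 488, 486 and 479.5 CPM in WT, and the groups did not overlap (log2 fold change 0.17 ± 0.08, unadjusted p = 0.0469, and 0.19 ± 0.09 without replicate 3). It was the 1 of 15 receptor genes that was higher at an unadjusted p under 0.05 (1.02% of all genes), and 0 were lower (1.24%). Of 34 lysosomal genes, 3 were higher at that level (1.02% of all genes) and 0 lower (1.24%). The list as a whole was level, with a median of 0.01 and 19 of 34 log2 fold changes above 0. Hexa, a subunit of the enzyme that breaks down GM2 ganglioside, read 63.1, 63.4 and 63.1 CPM, against 57.7, 55.4 and 52.7 CPM in WT, again with no overlap. Gaa, the acid glucosidase of lysosomal glycogen, read 345, 374 and 329.5 CPM, against 293, 330.2 and 289 CPM, and Ctsz, a cathepsin of microglia, 54.9, 59.8 and 42.6 CPM, against 37.3, 42.2 and 48.04 CPM. Without the library labelled replicate 3, 6 lysosomal genes were higher at that level (1.23% of all genes). Among them was Ctsd, the main aspartic protease of the lysosome, with 279.5, 299.6 and 231 CPM in 5xFAD;Ulk1OV and 231, 228 and 240.3 CPM in WT. Of 22 mTOR and AMPK genes, 1 was lower at that level (1.24% of all genes), Deptor, an inhibitory subunit of mTOR complexes. Deptor read 16.6, 16.7 and 18.3 CPM, against 21.4, 22.1 and 25.6 CPM in WT, with no overlap (-0.42 ± 0.15 on the log2 scale, and -0.46 ± 0.18 without replicate 3). Over the 105 autophagy, lysosome and nutrient sensing genes together, 104 intervals lay within a 2-fold change, and 0 genes passed the test.

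Of 15 APP family, secretase and amyloid protease genes 0 were called with all libraries. At an unadjusted p under 0.05, 1 (App) was higher (1.02% of all genes) and 0 were lower (1.24%), and the list's median was -0.05. Bace2, a paralog of the beta-secretase gene, read 12.5, 13.9 and 13.2 CPM in 5xFAD;Ulk1OV, against 10.7, 8.498 and 5.898 CPM in WT, without overlap (0.66 ± 0.41, unadjusted p = 0.128). The amyloid-degrading protease genes Mme (neprilysin) and Ide (insulin degrading enzyme) read 5.59, 6.34 and 5.399 CPM against 6.05, 8.06 and 9.87 CPM, and 44.7, 46.8 and 52.3 CPM against 50.7, 53.3 and 52.5 CPM. Both pairs of groups overlapped.

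Several microglial genes of the plaque response read higher. Of the 28 disease-associated microglia genes, 26 were tested. Of these, 19 had a log2 fold change above 0, 6 were higher at an unadjusted p under 0.05 (1.02% of all genes) and 1 was lower (1.24% of all genes). The lower one, Lgals3bp, a secreted galectin-binding protein gene, read 22.9, 22.1 and 19.4 CPM in 5xFAD;Ulk1OV, against 25.1, 31.5 and 30.7 CPM in WT. The list's median was 0.19, and 0.28 without the library labelled replicate 3, where 8 were higher at that level (1.23% of all genes) and 1, Cst7, passed the test. The library medians, relative to the WT mean, were 0.28, 0.27 and -0.05 in 5xFAD;Ulk1OV and 0.11, -0.03 and -0.09 in WT on the log2 scale, so the library labelled replicate 3 sat among the WT libraries.

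Cst7 (chr2:150570415-150578944) encodes cystatin F, an inhibitor of lysosomal cysteine proteases. It read 6.09, 6.29 and 0.779 CPM in 5xFAD;Ulk1OV, against 0.235, 0 and 0.454 CPM in WT. In Cst7 the library labelled replicate 3 was just above the highest WT library and far under its group mates. Clec7a (chr6:129461591-129472779), the receptor dectin-1, read 3.69, 2.504 and 1.23 CPM, against 1.06, 0.381 and 0.907 CPM, and Ccl6 (chr11:83587882-83593087), a chemokine, 5.98, 5.91 and 3.56 CPM, against 2.997, 2.94 and 2.67 CPM. In both the groups did not overlap, and the library labelled replicate 3 was the lowest of its group. Itgax, which encodes the integrin CD11c, read 1.96, 1.23 and 0.946 CPM, against 0.588, 0.272 and 0.737 CPM, again with no overlap. Log2 fold changes with all libraries were 4.23 ± 0.89 for Cst7, 1.66 ± 0.42 for Clec7a, 0.84 ± 0.23 for Ccl6 and 1.36 ± 0.47 for Itgax, and none passed the adjusted threshold. Without the library labelled replicate 3 they were 1.99 ± 0.37 for Clec7a, 1.05 ± 0.22 for Ccl6 and 1.57 ± 0.50 for Itgax. In these bulk samples more cells of a type and more RNA per cell cannot be told apart.

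The promoters of 3 of these genes are shown because the genes were high in the same libraries, from 250 bases before to 50 after the start (RefSeq, GRCm38.p6, each on its gene's own strand). Capitals mark GGAAGT, an ETS-type core that the myeloid factor PU.1 can recognise, or its reverse ACTTCC. Cst7 is at chr2:150570165-150570464 on the plus strand, Ccl6 at chr11:83593038-83593337 and Clec7a at chr6:129472730-129473029, both on the minus strand.
Cst7: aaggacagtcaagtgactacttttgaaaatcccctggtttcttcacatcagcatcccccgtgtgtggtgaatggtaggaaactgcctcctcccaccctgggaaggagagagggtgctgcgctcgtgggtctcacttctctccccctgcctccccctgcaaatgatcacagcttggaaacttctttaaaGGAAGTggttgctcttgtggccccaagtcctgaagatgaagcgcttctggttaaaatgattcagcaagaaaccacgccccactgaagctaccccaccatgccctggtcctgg
Ccl6: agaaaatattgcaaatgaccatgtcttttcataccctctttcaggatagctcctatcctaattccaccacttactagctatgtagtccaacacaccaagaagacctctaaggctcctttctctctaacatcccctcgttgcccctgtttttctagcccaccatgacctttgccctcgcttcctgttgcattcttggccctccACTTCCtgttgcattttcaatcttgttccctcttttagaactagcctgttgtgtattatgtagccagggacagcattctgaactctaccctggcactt
Clec7a: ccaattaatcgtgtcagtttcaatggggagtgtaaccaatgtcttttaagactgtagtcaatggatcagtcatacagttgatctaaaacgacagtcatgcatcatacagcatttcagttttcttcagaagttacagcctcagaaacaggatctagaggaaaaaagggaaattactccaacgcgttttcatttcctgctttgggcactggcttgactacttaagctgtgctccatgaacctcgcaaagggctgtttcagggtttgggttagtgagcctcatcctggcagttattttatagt
Cst7 held 1 match in the forward direction, Ccl6 1 in the reverse direction and Clec7a 0. Either direction was found in 23.8% of 32851 promoters of the same length, so a match is common, and 0 matches says only that these letters are not in this window.

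Genes of resting microglia did not follow. Of 18 homeostatic microglia genes, 0 reached an unadjusted p under 0.05 and all 18 intervals lay within a 2-fold change. P2ry12, the ADP receptor that guides microglial processes, read 50.1, 46.1 and 46.03 CPM in 5xFAD;Ulk1OV and 62.8, 48.7 and 57.7 CPM in WT. Of 15 complement genes tested, 0 reached that level with all libraries and 2 were higher without the library labelled replicate 3 (1.23% of all genes). C1qa, a chain of the C1q complex that opens the complement cascade, read 100.5, 104 and 79.6 CPM, against 88.8, 78.99 and 69.5 CPM. Of 17 MHC class I and 21 interferon response genes 0 reached an unadjusted p under 0.05 with all libraries. Irf7 was the 1 gene lower without the library labelled replicate 3 (1.78% of all genes).

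Among astrocyte genes Gfap, the intermediate filament that reactive astrocytes raise, read 1050, 918 and 892 CPM in 5xFAD;Ulk1OV, against 839.8, 784 and 688 CPM in WT. Every library labelled 5xFAD;Ulk1OV, replicate 3 included, exceeded every WT library in Gfap (0.31 ± 0.12, unadjusted p = 0.0257, and 0.36 ± 0.14 without replicate 3). Hspb1, a small heat shock protein gene of the same list, read 10.1, 8.42 and 10.6 CPM, against 9.404, 5.39 and 5.27 CPM. These were the 2 of 18 tested reactive astrocyte genes higher at an unadjusted p under 0.05 (1.02% of all genes). In the other direction there were 0 (1.24% of all genes), and the list's median was 0.21. Of 18 homeostatic astrocyte genes, 0 reached that level and all 18 intervals lay within a 2-fold change. Aqp4, the water channel of astrocyte end feet, read 198, 188 and 220.1 CPM and 242, 246 and 188 CPM.

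Activity-dependent genes, which neurons transcribe within minutes of firing, read lower. Of 26, 6 were lower at an unadjusted p under 0.05 (1.24% of all genes), 0 were higher and 20 had a log2 fold change under 0. Egr1, a zinc finger transcription factor gene, read 129.9, 137 and 122 CPM in 5xFAD;Ulk1OV, against 172, 206 and 164 CPM in WT. Every library labelled 5xFAD;Ulk1OV was below every WT library in Egr1 (-0.48 ± 0.15, and -0.44 ± 0.17 without replicate 3). The same held for Dusp5, a phosphatase that acts on ERK (34.8, 30.5 and 29.8 CPM, against 35.5, 40.3 and 42.1 CPM), for the related Dusp1 (39.2, 40.7 and 23.6 CPM, against 52.6, 41.3 and 54.05 CPM) and for Npas4, a transcription factor gene of active neurons (8.61, 9.43 and 6.902 CPM, against 9.698, 11.98 and 10.4 CPM). Fos, a subunit of the AP-1 transcription factor, read 25.8, 33.1 and 21.1 CPM, against 40.3, 38.2 and 32.1 CPM, and Btg2, an antiproliferative gene, 22.2, 31.4 and 13.5 CPM, against 44.8, 27.4 and 39.1 CPM. In all 6 of these genes the library labelled replicate 3 was the lowest of its group. Without it Fos, Dusp1 and Npas4 did not reach an unadjusted p under 0.05. The 95% intervals, which use fewer degrees of freedom than edgeR's test, then included 0 for Btg2 and Dusp5 too, and that of Egr1 was -0.85 to -0.03. The list's median was -0.16 with all libraries and -0.09 without that library, where 3 were lower at an unadjusted p under 0.05 (1.78% of all genes) and 1 was higher (1.23%). Both single transgenics lay further below WT on this list, with medians of -0.30 in 5xFAD and -0.60 in Ulk1OV.

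Other neuronal genes showed scattered differences. Bok, a BCL2 family gene, read 84.7, 88.5 and 84.6 CPM in 5xFAD;Ulk1OV, against 62.7, 51.8 and 58.3 CPM in WT, with no overlap (0.58 ± 0.14, unadjusted p = 0.00133, and 0.59 ± 0.16 without replicate 3). Wfs1 read 137, 127 and 55.6 CPM, against 146, 188 and 152 CPM, and the library labelled replicate 3 was the lowest of all 12 libraries. Reln, the secreted guidance protein of interneurons, read 57.8, 53.8 and 39.2 CPM, against 73.9, 81.5 and 66.8 CPM, and Gria4, an AMPA receptor subunit gene, 66.1, 58.5 and 64.2 CPM, against 70.6, 77.6 and 75.9 CPM, both without overlap. All 28 intervals of the synaptic vesicle and scaffold genes and all 29 of the glutamate and GABA receptor genes lay within a 2-fold change. Of the 12 dentate granule neuron genes 0 reached an unadjusted p under 0.05, and of 14 pyramidal neuron genes 1 did, Bok (1.02% of all genes were higher).

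As a list, mitochondrially encoded genes read lower in 5xFAD;Ulk1OV replicates 1 and 2, while the median of the library labelled replicate 3 was above the WT libraries. The library medians of the 13 protein genes, relative to the WT mean, were -0.39, -0.39 and 0.14 in 5xFAD;Ulk1OV and 0.11, -0.04 and -0.07 in WT on the log2 scale. The median log2 fold change was -0.21 with that library, with 2 genes lower at an unadjusted p under 0.05 (1.24% of all genes), and -0.40 without it, with 7 lower (1.78% of all genes). mt-Nd6, the complex I subunit gene on the opposite strand from the other protein genes of that genome, read 766, 715 and 938 CPM, against 1085, 976 and 988 CPM in WT. In mt-Nd6 all 3 libraries labelled 5xFAD;Ulk1OV, replicate 3 included, were below every WT library, the only one of the 13 genes without overlap. mt-Nd5, a neighbouring complex I gene, read 2776, 2592 and 3753 CPM, against 4155, 3636 and 3758 CPM, and mt-Co1, the catalytic subunit gene of cytochrome oxidase, 12060, 11720 and 17400 CPM, against 16710, 15440 and 15340 CPM.

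Nuclear genes of the same respiratory complexes did not share that direction. Of 36 complex I subunit genes, 32 had log2 fold changes above 0 and 0 reached an unadjusted p under 0.05, with a median of 0.08. Ndufa13 read 115, 112 and 107 CPM in 5xFAD;Ulk1OV, against 101, 93.8 and 94.4 CPM in WT, and Ndufa6 85.4, 76.2 and 80.9 CPM, against 75.99, 69.1 and 67.5 CPM, both without overlap. Cox5b, a nuclear subunit gene of cytochrome oxidase, read 196, 182 and 189 CPM, against 167, 155 and 162 CPM. Groups did not overlap in the higher direction in 5 of 36 complex I and 5 of 25 complex II to IV genes, beside 4.42% of all genes tested.

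Cytosolic ribosomal protein genes read slightly higher as a group. Of 49, 46 had log2 fold changes above 0, and in 31 every library labelled 5xFAD;Ulk1OV exceeded every WT library, beside 4.42% of all genes in that direction, while 0 were separated the other way (4.39%). The median was 0.14 both with and without the library labelled replicate 3. The library medians, relative to the WT mean, were 0.11, 0.14 and 0.14 in 5xFAD;Ulk1OV and 0.04, -0.02 and -0.02 in WT. Within Ulk1OV alone they were -0.36, 0.23 and -0.06. The 31 genes were read in the same 6 libraries and are not 31 separate results. Rpl8 read 381, 382 and 372 CPM in 5xFAD;Ulk1OV, against 345, 330.0 and 307 CPM in WT, and Rps9 282, 277 and 269 CPM, against 253, 229 and 238 CPM, with log2 fold changes of 0.21 ± 0.11 and 0.20 ± 0.11. None passed the test, and 1 was higher at an unadjusted p under 0.05 (1.02% of all genes). That gene, Rpl17, read 72.1, 104 and 173 CPM, against 65.4, 53.1 and 51.5 CPM (1.04 ± 0.25, and 0.64 ± 0.20 without replicate 3), and was highest in the library labelled replicate 3. Ribosomal protein genes have many processed pseudogenes, so each level depends on how shared reads were counted.

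Heat shock and endoplasmic reticulum stress genes read higher mainly through the library labelled replicate 3. Hspa1b, an inducible HSP70 gene, read 17.2, 15.1 and 28.8 CPM in 5xFAD;Ulk1OV, against 13.1, 12.6 and 8.51 CPM in WT, and Dnajb1, its cochaperone gene, 68.3, 64.7 and 76.2 CPM, against 61.6, 61.9 and 52.9 CPM. Sdf2l1, an endoplasmic reticulum chaperone component, read 12.6, 10.7 and 17.8 CPM, against 9.64, 8.72 and 11.8 CPM, and Atf4, the transcription factor of the integrated stress response, 119, 124 and 151 CPM, against 106, 109 and 118 CPM. In each of these 4 genes the library labelled replicate 3 was the highest of the 6 libraries. The library medians of the unfolded protein response list were -0.06, -0.00 and 0.36 in 5xFAD;Ulk1OV and 0.03, -0.14 and 0.09 in WT relative to the WT mean. Of 16 heat shock genes 3 were higher at an unadjusted p under 0.05 with that library (1.02% of all genes) and 0 without it (1.23% of all genes). Of 31 proteasome genes 0 reached that level, and all 31 intervals lay within a 2-fold change.

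**Figure D4:**
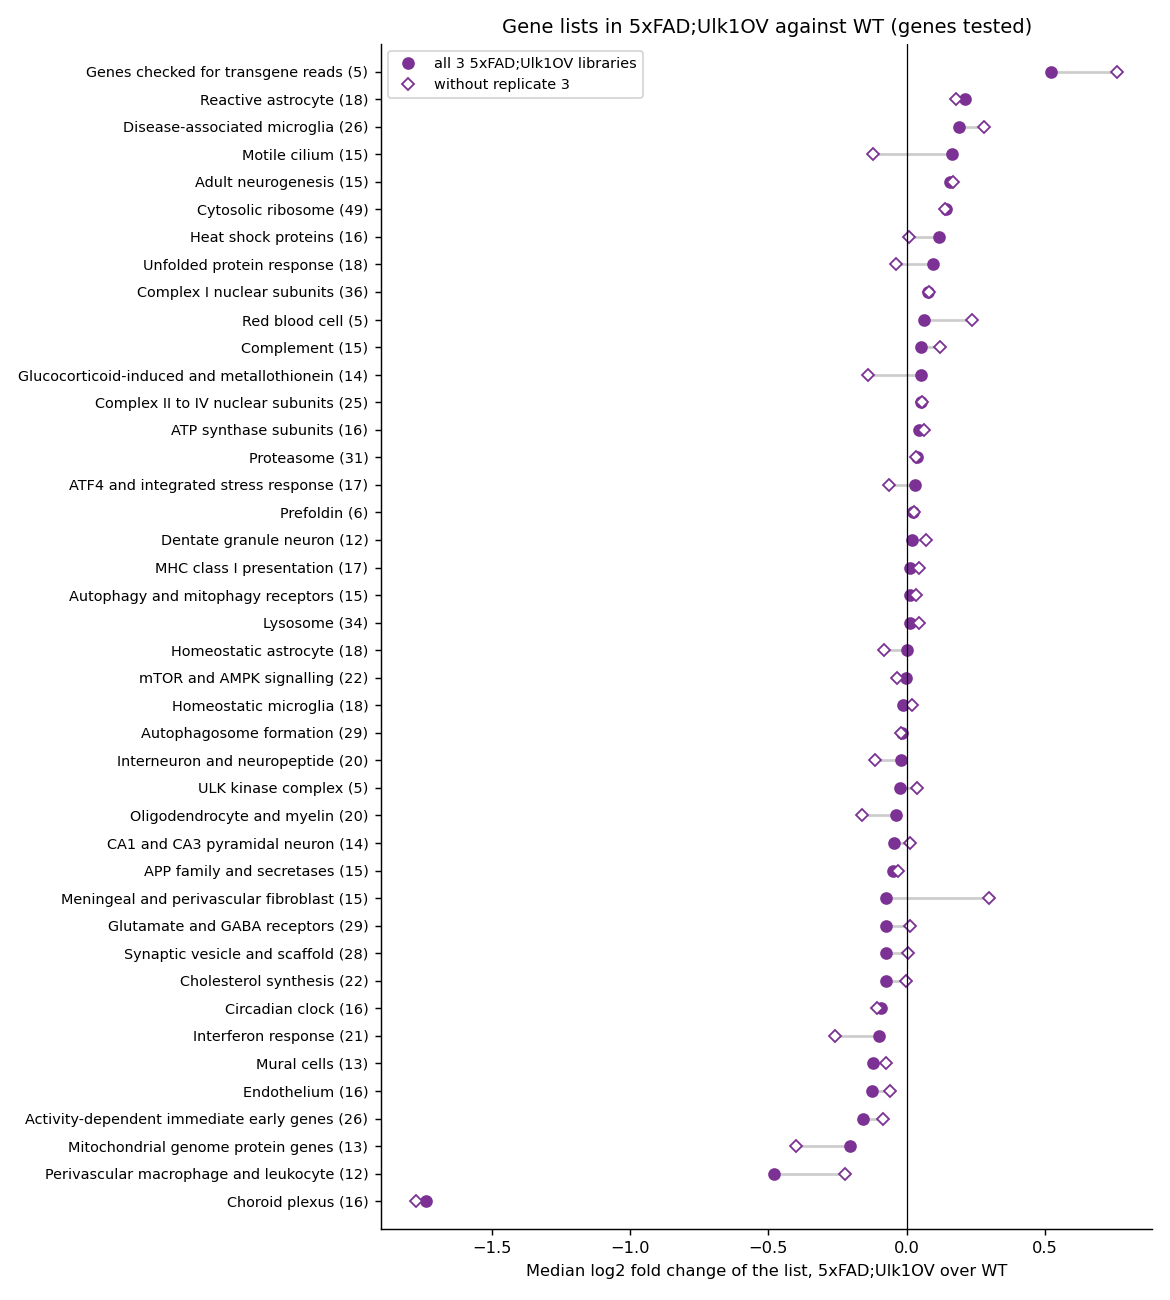
Median log2 fold change (x axis) of 42 gene lists, with the genes tested in parentheses, for 5xFAD;Ulk1OV over WT with all 3 libraries (filled circles) and without replicate 3 (open diamonds). Most lists lie within 0.2 of 0, the fibroblast, motile cilium and leukocyte lists move most between the circles and the diamonds, and the choroid plexus list lies at -1.74 with all libraries.

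Vessel and border tissue varied from library to library. The 16 choroid plexus genes all had log2 fold changes under 0, with a median of -1.74, yet 0 reached an unadjusted p under 0.05. Ttr, transthyretin, the most abundant of them, read 25.9, 285 and 156 CPM in 5xFAD;Ulk1OV, against 24.98, 64.6 and 5949 CPM in WT, so a single WT library held nearly all of it. The summed level of the list was 269, 634 and 557 CPM in 5xFAD;Ulk1OV and 294, 323 and 8662 CPM in WT. Without WT replicate 3 the list's median was 0.96. Of 15 meningeal and perivascular fibroblast genes 0 reached an unadjusted p under 0.05. The list's median was -0.07 with the library labelled replicate 3 and 0.30 without it, where 2 were higher at that level (1.23% of all genes), Ptgds and Aldh1a2. Ptgds, prostaglandin D synthase of the leptomeninges, read 3259, 3197 and 1276 CPM, against 2793, 1656 and 1314 CPM. Pdgfrb, the pericyte growth factor receptor, read 17.2, 17.9 and 13.3 CPM, against 20.8, 21.3 and 20.02 CPM, and Slco1a4, an endothelial transporter, 8.72, 10.9 and 10.8 CPM, against 14.6, 9.64 and 20.6 CPM. Endothelial and mural lists had 1 gene each at an unadjusted p under 0.05, those 2, both lower (1.24% of all genes).

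By the rule for named genes, those with the smallest p among genes with a mean of at least 1 CPM are also given. Nuf2, a kinetochore gene, had an unadjusted p of 0.000298, with 6.65, 5.91 and 6.74 CPM in 5xFAD;Ulk1OV and 3.64, 3.98 and 3.800 CPM in WT (0.76 ± 0.16, and 0.72 ± 0.18 without replicate 3). Its mean was also above WT in both single transgenics, at 6.67 CPM in 5xFAD and 8.68 CPM in Ulk1OV. On the lower side stood Gm6627, annotated as a processed pseudogene (0.447, 0.693 and 0.3896 CPM, against 2.65, 2.56 and 1.53 CPM). Arpp21, a cyclic AMP regulated phosphoprotein gene of forebrain neurons, was lower too (116, 132 and 120.3 CPM, against 172, 224 and 150.5 CPM). So was Cdkl2, a kinase gene of the cyclin dependent kinase like family (44.3, 40.3 and 42.8 CPM, against 53.4, 54.3 and 51.8 CPM). The others were Gm3667 (0.671, 1.01 and 0.835 CPM, against 1.41, 2.18 and 1.99 CPM) and Tnc, the matrix protein tenascin C (3.97, 3.94 and 3.95 CPM, against 6.76, 7.08 and 6.07 CPM). In all of these the 3 libraries labelled 5xFAD;Ulk1OV lay on one side of the 3 WT libraries, and none passed the adjusted threshold.

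The double transgenic was then compared with each single transgenic. By label each pair differs in 1 transgene, which cannot be told apart from any batch or from differences in border tissue content. Against Ulk1OV, edgeR called 1051 of 17227 genes (6.1%), 632 higher (3.67%) and 419 lower (2.43%) in 5xFAD;Ulk1OV. Without the library labelled replicate 3 it called 1579 (8.97%), 947 higher (5.38%) and 632 lower (3.59%). These counts depended on single libraries: edgeR called 0 genes without 5xFAD;Ulk1OV replicate 1, without replicate 2 or without Ulk1OV replicate 3, 386 without Ulk1OV replicate 1 and 1629 without Ulk1OV replicate 2. Prnp (0.83 ± 0.22, edgeR adjusted p = 0.0457) and Lamr1-ps1 (adjusted p = 0.0333) passed the test with all libraries, and App (0.57 ± 0.18, adjusted p = 0.0745) did not. Ulk1 differed by 0.03 ± 0.11 between these 2 groups that carry the same Ulk1OV label.

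Of the 15 fibroblast genes 10 were called higher (3.67% of all genes) and 0 lower (2.43%) in 5xFAD;Ulk1OV than in Ulk1OV. Their median log2 fold change was 1.89, beside -0.01 over all genes tested. These calls, like those of the lists below, fell to 0 without 5xFAD;Ulk1OV replicate 1, without replicate 2 or without Ulk1OV replicate 3. Ptgds read 3259, 3197 and 1276 CPM in 5xFAD;Ulk1OV, against 618, 642 and 537 CPM in Ulk1OV, Col3a1, a fibrillar collagen gene, 6.15, 6.71 and 2.12 CPM, against 0.936, 1.42 and 0.545 CPM, and Aldh1a2, the retinoic acid synthase of the meninges, 47.8, 43.4 and 16.8 CPM, against 6.05, 9.26 and 8.01 CPM. The library medians of this list relative to WT were 0.28, 0.43 and -0.91 in 5xFAD;Ulk1OV, -1.57, -0.82 and -0.47 in 5xFAD and -1.54, -1.51 and -1.77 in Ulk1OV, with the library labelled 5xFAD;Ulk1OV replicate 3 under the WT libraries. The list's summed level was 3824, 3795 and 1535 CPM in 5xFAD;Ulk1OV, 909, 1375 and 1511 CPM in 5xFAD, 829.9, 883 and 759.7 CPM in Ulk1OV and 3419, 2089 and 1714 CPM in WT, and the part of these cells in the other results was not tested. Of the 26 microglial genes 5 were called higher (3.67% of all genes) and 0 lower (2.43%). Among the higher ones were Cst7 (4.08 ± 0.87, adjusted p = 0.0218) and Ccl6 (0.94 ± 0.23, adjusted p = 0.0349). Of 26 activity-dependent genes 4 were called higher (3.67% of all genes) and 0 lower (2.43%). Egr1 read 129.9, 137 and 122 CPM in 5xFAD;Ulk1OV, against 105, 61.9 and 71.97 CPM in Ulk1OV, and Junb, an AP-1 subunit gene, 94.3, 91.01 and 58.2 CPM, against 41.1, 41.6 and 36.6 CPM.

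Of 13 mitochondrially encoded genes 7 were called lower (2.43% of all genes) and 0 higher (3.67%) than in Ulk1OV, with a median of -0.60. mt-Nd6 read 766, 715 and 938 CPM in 5xFAD;Ulk1OV, against 1561, 1827 and 1662 CPM in Ulk1OV (-1.06 ± 0.12, adjusted p = 0.00669). Nuclear complex I genes went the other way in part, with 5 of 36 called higher (3.67% of all genes) and 0 lower (2.43%). Atp5k, a small subunit gene of ATP synthase, read 68.01, 65.5 and 69.7 CPM in 5xFAD;Ulk1OV, against 10.4, 15.7 and 7.900 CPM in Ulk1OV (2.58 ± 0.33, adjusted p = 0.0129), while WT held 63.00, 64.8 and 68.8 CPM. Of 18 unfolded protein response genes 4 were called lower (2.43% of all genes) and 0 higher (3.67%). Among the lower ones were Manf (-0.56 ± 0.11) and Hsp90b1 (-0.63 ± 0.13), a secreted factor and a chaperone of the endoplasmic reticulum. Atf4 was higher (0.73 ± 0.11, adjusted p = 0.014). Of the amyloid and autophagy genes described above, Ide (-0.45 ± 0.08) and Rb1cc1 (-0.45 ± 0.10) were lower and Ctsd (0.59 ± 0.12) was higher. Bok, with 45.9, 52.3 and 38.7 CPM in Ulk1OV, was also higher in 5xFAD;Ulk1OV (0.91 ± 0.14, adjusted p = 0.014).

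**Figure D5:**
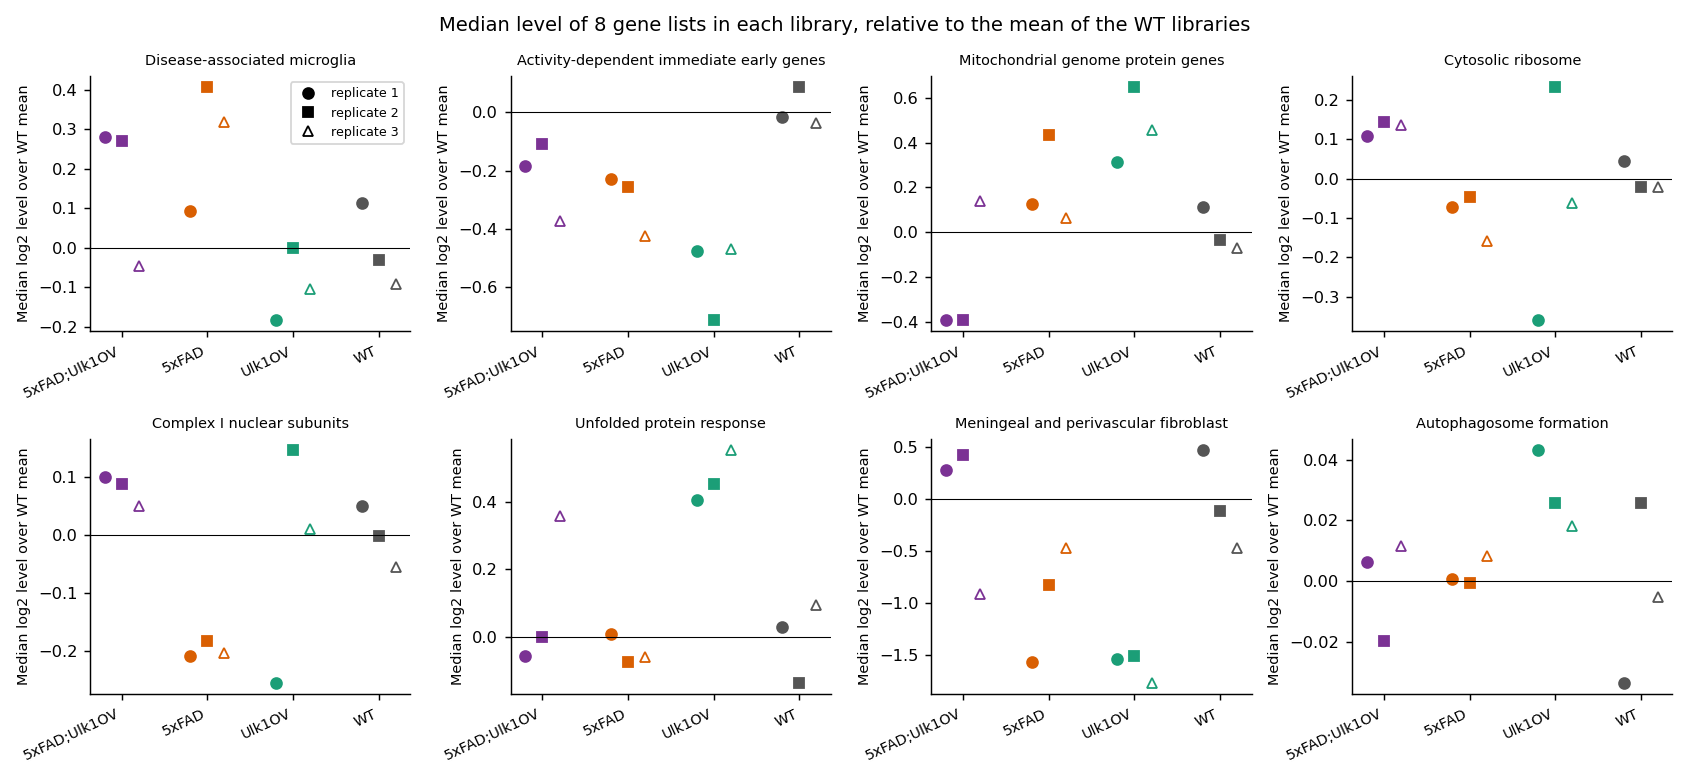
Median log2 level of 8 gene lists relative to the mean of the WT libraries (y axis) in each library of the 4 groups (x axis), with open triangles for replicate 3 and a line at 0. 5xFAD;Ulk1OV replicates 1 and 2 lie within the WT range or next to it in the unfolded protein response and fibroblast lists and below WT in the mitochondrial genome list, where the library labelled replicate 3 lies at 0.14.

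Against 5xFAD, edgeR called 8 of 17227 genes (0.0464%), all higher in 5xFAD;Ulk1OV. They were Ddrgk1, which takes part in ufmylation (63.8, 61.6 and 64.96 CPM in 5xFAD;Ulk1OV, against 43.4, 35.7 and 39.8 CPM in 5xFAD), the complex I subunit genes Ndufa1 (62.2, 53.6 and 49.9 CPM, against 32.8, 27.6 and 30.2 CPM) and Ndufa2 (74.5, 73.8 and 59.5 CPM, against 37.2, 33.6 and 37.5 CPM), the prefoldin subunit gene Pfdn6 (44.04, 43.7 and 41.5 CPM, against 28.04, 18.98 and 25.8 CPM), the myosin light chain gene Myl6 (268, 259 and 235 CPM, against 181, 149.7 and 164 CPM), Tceal3, Tceal5 and Isoc2a. Their log2 fold changes ran from 0.62 to 0.94. In each of the 5 genes shown every library labelled 5xFAD;Ulk1OV was above every 5xFAD library. WT held 73.2, 59.2 and 58.2 CPM of Ndufa2 and 40.3, 37.1 and 36.98 CPM of Pfdn6, close to the double transgenic. The count was 12 without the library labelled replicate 3 (0.0682%, with 0.0568% higher and 0.0114% lower) and 0 without 5xFAD;Ulk1OV replicate 1 or 2 or 5xFAD replicate 2 or 3, and it was 260 without 5xFAD replicate 1. DESeq2 called 713, 381 higher and 332 lower. Fitted to the 6 libraries alone, edgeR called 0. The comparisons with WT, 5xFAD and Ulk1OV share the 5xFAD;Ulk1OV libraries, so their values are given side by side and not as separate support for each other.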

How the data were processed

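Gene counts of 12 mouse hippocampus RNA libraries were used as the authors deposited them, whole-number read counts per gene symbol. Per the submitters' processing notes the tools named are HISAT2, featureCounts, SAMtools, Trim Galore, FastQC and DESeq2, on build mm10. The sources used here do not give strand or annotation. Genes were filtered with filterByExpr, scaled by TMM and fitted with edgeR 4.0.16 (R 4.3.3), with 1 mean for each of the 4 groups over 12 libraries and a quasi-likelihood test. Genes with a Benjamini-Hochberg adjusted p under 0.05 were called. SE is the absolute log2 fold change over the root of F, intervals are 95%, and CPM use TMM library sizes. DESeq2 1.42.0 was an alternative. The fit was repeated without 5xFAD;Ulk1OV replicate 3 (11 libraries). The scripts were tested on simulated data. Comparisons, members and lists were chosen with earlier results of these data known. Named genes were the transgene genes, called genes with the largest change or, where fewer than 3 passed, the 5 smallest p per direction with a mean of at least 1 CPM, and up to 5 per list with the smallest p. Col3a1, Aldh1a2, Manf and Hsp90b1 were also named with values seen, and some genes of the rule are not reported here. Intervals cover the spread between libraries.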

Additional observations from a re-analysis of the deposited data

How the results depend on the processing

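Against WT, edgeR without a filter on low counts called 138 genes (61 higher, 77 lower), 39 of which did not overlap between groups and 15 of which were choroid plexus list members. Leaving out 1 library gave 0 to 5 (higher 0 to 5, lower 0), and DESeq2 without 5xFAD;Ulk1OV replicate 3, chosen after seeing the data, gave 7 (6 higher, 1 lower). Against 5xFAD the count was 18 with DESeq2 size factors (18 higher), 713 with DESeq2 (381 higher, 332 lower), 901 without a filter (607 higher, 294 lower), 0 with only the 6 libraries, 0 to 260 when 1 library was left out (higher 0 to 187, lower 0 to 73) and 630 with DESeq2 without replicate 3 (386 higher, 244 lower). Against Ulk1OV it was 1994 with DESeq2 (1144 higher, 850 lower), 2097 without a filter (1275 higher, 822 lower), 430 with only the 6 libraries (324 higher, 106 lower), 0 to 1629 when 1 library was left out (higher 0 to 1020, lower 0 to 632) and 2420 with DESeq2 without replicate 3 (1325 higher, 1095 lower). The causes were not tested.

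Deviations from the group means correlated at 0.26, 0.06 and 0.33 between same-numbered 5xFAD;Ulk1OV and WT libraries, and at -0.295 to 0.14 between differently numbered ones. The labels do not say whether equal numbers mark paired libraries, so the main fit did not pair them. With the replicate number as a block, edgeR called 0 genes against WT, 0 against 5xFAD and 1206 against Ulk1OV.

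Of 839 values of 70 genes against WT under the alternatives, 801 kept their direction and side of the threshold, 29 came past it and 9 changed sign. Leaving out 1 library gave log2 fold changes against WT of -0.0582 to 0.0374 for Atg13, -0.103 to 0.0368 for Rb1cc1, -0.0850 to 0.0202 for Thy1 and -4.47 to 1.79 for Ttr, the last positive without WT replicate 3. In DESeq2 without 5xFAD;Ulk1OV replicate 3 Atg13 was 0.0360 and Thy1 0.0158. Against Ulk1OV, Ulk1 ranged from -0.0195 to 0.119. With 3 libraries a group, 1 library can decide a call.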

Other observations

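Genes of other programmes were mostly level between the double transgenic and WT. Of 20 oligodendrocyte and myelin genes 0 reached an unadjusted p under 0.05 and all 20 intervals lay within a 2-fold change. Of 16 circadian clock genes 1 was lower at that level (1.24% of all genes), Ciart, a repressor of the clock, with 10.3, 9.54 and 8.07 CPM in 5xFAD;Ulk1OV and 9.93, 15.4 and 16.4 CPM in WT. Of 14 glucocorticoid-induced and metallothionein genes 1 was higher (1.02% of all genes), Mt3, a brain metallothionein, with 428, 433 and 502 CPM in 5xFAD;Ulk1OV and 345, 339 and 393 CPM in WT. The Mt3 groups did not overlap. Of 22 cholesterol synthesis genes 0 reached that level with all libraries, and 21 intervals lay within a 2-fold change.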
